A study of Mus musculus with 3 samples.

Results

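Neutrophils were a rare class of cells in the mouse dorsal skin libraries described here, and most of those recovered came from the library of irradiated, ruxolitinib-treated skin. They were chosen with a fixed rule on single-cell counts of unique molecular identifiers (UMIs, each standing for 1 captured transcript). Cells were retained with 200 genes or more and no more than 10% of their UMIs from mitochondrial genes. A neutrophil then had to hold a UMI of at least 3 of the 6 genes Csf3r, Cxcr2, Retnlg, Il1r2, S100a8 and S100a9, one of them Csf3r or Cxcr2. S100a8 and S100a9 together had to supply at least 1% of its UMIs, and it could hold no UMI of the fibroblast receptor gene Pdgfra or the basal keratinocyte keratin gene Krt5. Of 33627 retained cells, 183 met the rule.

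Full-thickness dorsal skin of wild type C57BL/6J mice, labelled female and 8 weeks old, was dissociated and profiled by 10x Genomics 3′ v3.1 sequencing 24 hours after the last exposure. The study's text gives the 8 weeks for the mice as purchased, and their age at sampling was not given. The CON library came from unirradiated skin, the UV library from skin irradiated on alternate days over 12 weeks with mixed UVA (0.6 mW/cm2) and UVB (3.5 mW/cm2), and the Rux library from skin given the same irradiation followed each time by a topical 1.5% ointment of ruxolitinib, an inhibitor of the kinases JAK1 and JAK2. There was 1 library per condition, and the number of mice behind each was not given in the sources used here, so every interval below covers counting error only and no difference between conditions could be tested. The study's text has the CON and UV mice receive vehicle, which the labels do not mention.

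Neutrophils are short-lived granulocytes that are made in bone marrow under the growth factor G-CSF, circulate in blood and enter inflamed skin along gradients of CXCR2 ligands, formyl peptides and complement fragments. They carry ready-made antimicrobial granules whose genes are mostly transcribed in the marrow, whereas cells in tissue transcribe cytokines, chemokines and survival genes. Receptors for G-CSF, interferons and interleukin-6 family cytokines signal in them through JAK kinases and STAT transcription factors, the step that ruxolitinib inhibits.

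The 183 neutrophils comprised 29 of 12046 retained cells in CON, 14 of 11359 in UV and 140 of 10222 in Rux. The share was 0.241% in CON (95% exact binomial interval 0.161 to 0.346), 0.123% in UV (0.0674 to 0.207) and 1.37% in Rux (1.15 to 1.61). The Rux interval lay above the other two, whose intervals overlapped. The share in Rux was 11.1-fold that in UV (interval 6.41 to 20.9) and 5.69-fold that in CON (3.79 to 8.81), and the share in UV was 0.512-fold that in CON (0.25 to 1). Rux supplied 76.5% of all neutrophils. Cells selected by macrophage genes made up 0.847% of CON, 0.88% of UV and 1.34% of Rux, a smaller spread between libraries.

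**Figure D1:**
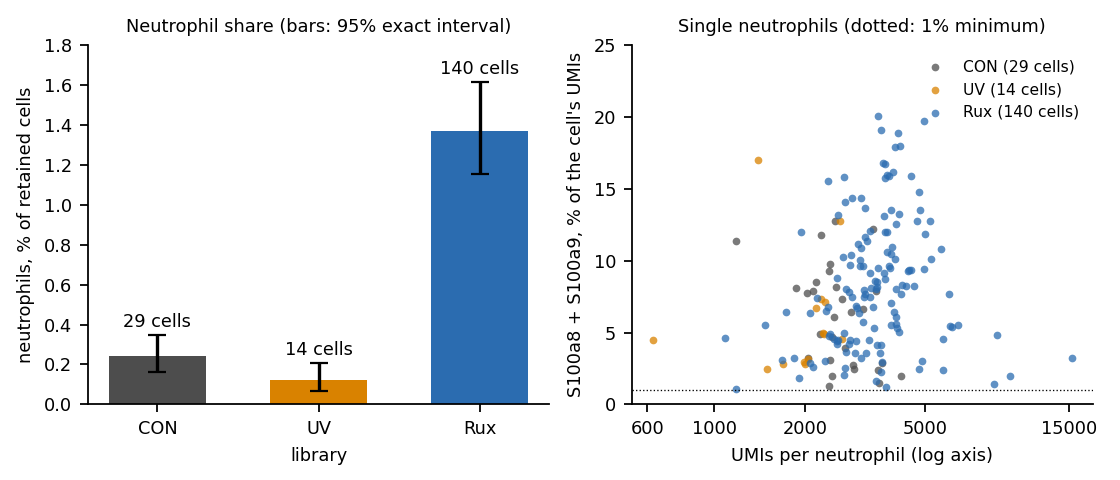
The left panel plots neutrophils as a percentage of retained cells in each library, with 95% exact binomial intervals as error bars; the bar for Rux (1.37%, 140 cells) stands above those for CON (0.241%, 29 cells) and UV (0.123%, 14 cells). The right panel plots each neutrophil by its UMIs (log axis) and by the percentage of its UMIs from S100a8 and S100a9, with the 1% minimum dotted; the cells of the 3 libraries overlap and 1 Rux cell reaches 15332 UMIs.

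Several other features of the libraries were also highest in Rux. S100a9 in Pdgfra cells followed the order of the shares, at 1.77 CPM (UMIs per 1000000 UMIs of the cells summed) in CON, 0.913 CPM in UV and 110 CPM in Rux. Cells that met all other rule terms but held a Pdgfra UMI numbered 2 in CON, 0 in UV and 15 in Rux. Those of them without a Krt5 UMI were counted among the Pdgfra cells. The source of the S100a9 UMIs in Pdgfra cells was not tested. Red cells did not follow that order, since cells with at least 10% haemoglobin UMIs were 0.0996% of CON, 0.405% of UV and 1.02% of Rux. Median UMIs per retained cell were 7678 in CON, 7739 in UV and 9546 in Rux. The part of blood content or depth in the difference of shares was not tested. When every cell was thinned to 500 UMIs before the rule was applied, 24, 7 and 91 cells qualified, and the Rux share was 14.4-fold the UV share and 4.47-fold the CON share.

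The exclusion of cells with Pdgfra or Krt5 UMIs removed 18 cells in CON, 3 in UV and 64 in Rux that met all other terms. Near the S100 minimum the rule decided few cells. The lowest percentage inside was 1.29% in CON, 2.48% in UV and 1.1% in Rux, and the highest outside was 0.559%, 0.876% and 0.947%. A UMI of all 6 genes was found in 11 of 29, 4 of 14 and 69 of 140 neutrophils.

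Neutrophils held few transcripts. Their median was 2498 UMIs in CON (1178 to 4156), 2112 in UV (625 to 2648) and 3468 in Rux (1083 to 15332), and their sums were 76785, 27904 and 514551 UMIs. The UV values therefore rest on the least RNA, and a single UV cell can move a gene. A doublet caller marked 0, 0 and 6 of the neutrophils. Barcodes shared between libraries numbered 27 to 42 per pair among retained cells, and 1 of them was a neutrophil.

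The label female was not borne out by the sex-linked transcripts. Xist, the RNA that coats the inactive X chromosome, had no UMI in any neutrophil and was at 0.116, 0.106 and 0.101 CPM over all retained cells of CON, UV and Rux. Ddx3y, a helicase gene on the Y chromosome, was at 182, 430 and 187 CPM in neutrophils (14, 12 and 96 UMIs) and at 110, 116 and 122 CPM over all retained cells. All 3 libraries went the same way, and no comparison below uses the label.

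The neutrophil name held against genes the rule did not use. G0s2, an inhibitor of lipid breakdown that is abundant in neutrophils, was at 5170 CPM in CON, 5519 in UV and 4091 in Rux, while macrophage cells held at most 2 UMIs of it in any library. Hdc, which makes histamine, was at 2696, 2043 and 2468 CPM in neutrophils and at 12.4, 14.7 and 25 CPM in macrophage cells. Srgn, the core protein of granule proteoglycan, was at 12724, 12005 and 12621 CPM. Acod1, which makes itaconate, was at 4506, 4695 and 4911 CPM, and the lectin receptor Clec4d at 2618, 3405 and 3156 CPM. These 5 genes were found in most cells of every library, and Srgn in all of them.

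Primary granule genes, which are transcribed in bone marrow, were at or near 0, whereas the secondary granule genes ranged widely. Of 6 primary granule genes, Mpo, Elane, Ctsg, Ms4a3 and Bpi had no UMI in any neutrophil, and Prtn3 had 4 UMIs, all in Rux. Camp, a secondary granule peptide, had none, and the lactoferrin gene Ltf had 0, 1 and 4 UMIs. Ngp had 1, 0 and 22 UMIs. On the same list of 9 secondary granule genes, Lcn2 was at 1029 CPM in CON, 1075 in UV and 2089 in Rux, Hp at 1081, 788 and 867, and the peptidoglycan-binding protein gene Pglyrp1 at 404, 251 and 398. Mmp8, a collagenase of the granules, was at 208, 108 and 227 CPM. Ly6g, the surface marker used to sort mouse neutrophils, had 0, 0 and 13. Mki67, a marker of dividing cells, had 1, 0 and 9.

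Markers of other lineages were low but not absent. The 8 macrophage markers summed to 117 CPM in CON, 251 in UV and 107 in Rux (7 of 8 detected in Rux, led by Csf1r), against 8539, 5574 and 5002 CPM in macrophage cells. Macrophage cells were selected on 6 of these 8 markers (C1qa, C1qb, C1qc, Adgre1, Mrc1 and Csf1r), so their level is partly fixed by that choice. The 7 class II antigen presentation and dendritic markers summed to 860, 215 and 272 CPM, and 21.2% of the CON sum lay in 1 cell. The 6 fibroblast markers summed to 1003, 1433 and 2171 CPM, 5 of 6 detected in each library and Pdgfra at 0 by the rule, against 24131, 23245 and 23822 CPM in Pdgfra cells. In Rux 1 cell held 23.4% of the fibroblast sum. With doublets removed, the Rux over CON ratio of Dcn, a gene of this list, went from 1.83 to -0.11. The erythrocyte and platelet list summed to 26.1, 215 and 970 CPM, and 1 Rux cell held 90.8% of the Rux sum. Eosinophil markers had 0, 0 and 6 UMIs. The part of free RNA or joined cells in these sums was not tested.

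**Figure D2:**
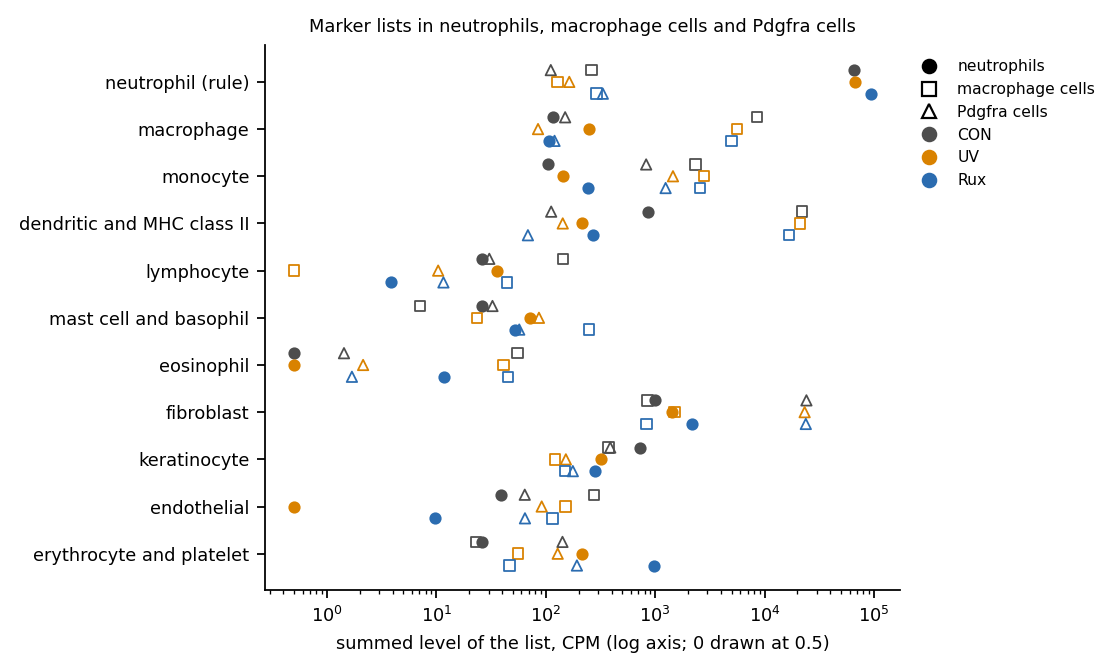
Summed level of each marker list in CPM (log axis, 0 drawn at 0.5) in neutrophils (filled circles), macrophage cells (open squares) and Pdgfra cells (open triangles), with colours for the 3 libraries. The 6 rule genes reach 65560 CPM or more in neutrophils. In the same cells macrophage markers sit at 107 to 251 CPM and fibroblast markers at 1003 to 2171 CPM, below the 23245 to 24131 CPM of Pdgfra cells.

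The genes the rule used are given as a description. S100a9 (chr3:90692632-90695721, minus strand) and S100a8 (chr3:90668978-90670035, plus strand), adjacent genes on GRCm38 whose products pair as calprotectin, an antimicrobial chelator of metal ions, were the rule's most abundant genes. S100a9 was at 37299 CPM in CON, 37199 in UV and 54311 in Rux, and S100a8 at 21267, 23366 and 29513. Retnlg, a resistin-like secreted protein, was at 3113, 2186 and 6264 CPM. Csf3r, the G-CSF receptor, was at 938, 1003 and 886 CPM, Cxcr2, a receptor for CXC chemokines such as CXCL1, CXCL2 and CXCL5, at 378, 323 and 292 CPM, and Il1r2, a decoy receptor for interleukin-1, at 2566, 2365 and 2247 CPM. From cell to cell Retnlg ranged from 0 to 44.6 UMIs per 1000 UMIs of the cell in Rux (median 3.7), from 0 to 11.3 in CON (median 1.66) and from 0 to 16.4 in UV (median 0.622).

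Levels were then compared between libraries for genes whose pair of levels averaged 200 CPM or more and whose UMIs together reached 20. Ratios are log2 of summed levels with 0.5 UMI added, and a gene was counted when its ratio passed 2-fold in size. Between UV and CON, 114 of 832 genes did so (13.7%), between Rux and UV 136 of 822 (16.5%), and between Rux and CON 62 of 819 (7.57%). The median ratio of all genes was 0.02, -0.18 and -0.14 in the same order. UV over CON and Rux over CON share the CON cells, and UV over CON and Rux over UV share the 14 UV cells.

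Genes of secreted antimicrobial proteins and inhibitors differed gene by gene. Wfdc17, Lcn2 and Lrg1 were highest in Rux, Slpi was higher in UV and Rux than in CON, and Hp and Pglyrp1 were not higher in Rux than in CON. Wfdc17, a small secreted protein with a whey acidic domain, was at 1524 CPM in CON, 1433 in UV and 4911 in Rux, a log2 ratio of 1.68 for Rux over CON (95% interval 1.42 to 1.97). The middle Rux cell held 4.54 UMIs per 1000 and the middle CON and UV cells 0.494 and 0.874, although the ranges overlapped (0 to 17.1 in Rux, 0 to 8.8 in CON). Lcn2, which binds bacterial iron carriers, had a ratio of 1.01 for Rux over CON (0.69 to 1.37) and of 0.94 for Rux over UV (0.44 to 1.53), the latter being -0.020 with an S100 minimum of 5%. Slpi, a protease inhibitor, was at 2579, 4300 and 4641 CPM, higher in both irradiated libraries (0.74 for UV over CON, 0.40 to 1.07, and 0.84 for Rux over CON, 0.64 to 1.06). Lrg1, a leucine-rich glycoprotein of neutrophil granules, was at 130, 251 and 406 CPM (1.57 for Rux over CON, 0.73 to 2.72). The intervals of haptoglobin (Hp, -0.33 for Rux over CON, -0.66 to 0.04) and Pglyrp1 (-0.04, -0.57 to 0.58) included 0. The 3 secondary granule genes measured well enough for Rux over CON had a median of -0.04. Msrb1, a methionine sulphoxide reductase, was lower in Rux at 733 CPM than in CON (1263 CPM) or UV (1218 CPM). Of the 21 genes on the list of neutrophil identity that were measured well enough, 2 passed 2-fold upward for Rux over CON and 0 downward, against 3.42% and 4.15% of all genes. The list median was 0.12.

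**Figure D3:**
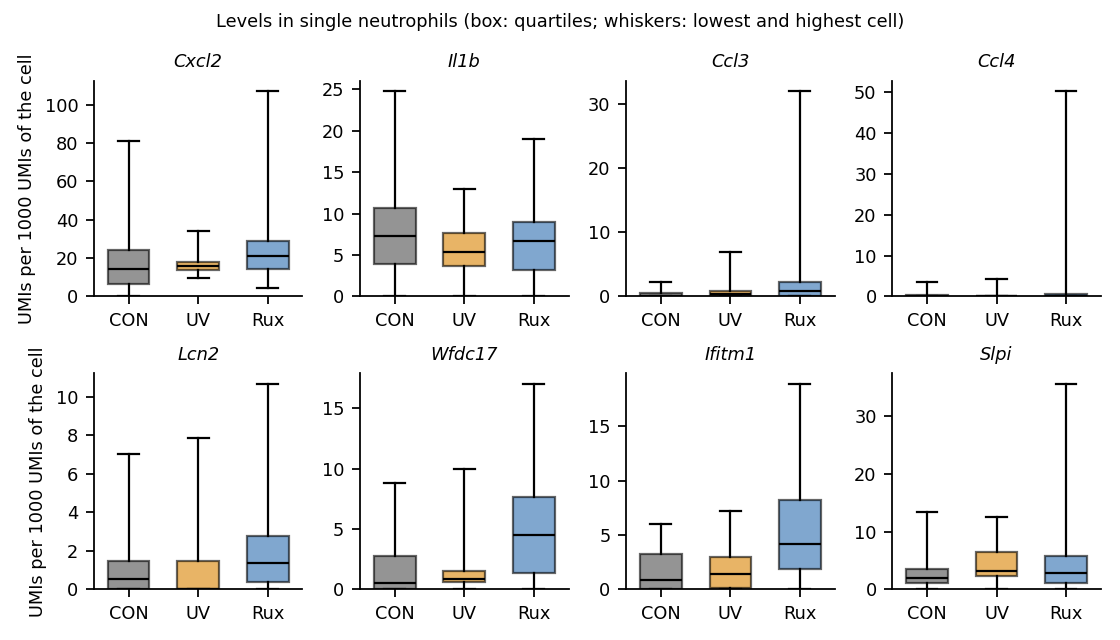
Levels of 8 genes in single neutrophils, in UMIs per 1000 UMIs of the cell, for CON, UV and Rux; boxes span the quartiles with the median as a line, and whiskers reach the lowest and the highest cell. The medians of Wfdc17 and Ifitm1 are higher in Rux (4.54 and 4.19) than in CON (0.494 and 0.825), although their boxes overlap. The Il1b boxes also overlap (medians 7.28, 5.35 and 6.65), and the Ccl4 medians are 0.

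Of the cytokine and chemokine transcripts, Cxcl2 and Il1b were found in almost every neutrophil. Cxcl2, a CXCR2 ligand that draws in further neutrophils, was at 17738 CPM in CON, 17202 in UV and 23899 in Rux. Pdgfra cells held it at 701, 1143 and 1586 CPM, and macrophage cells at 10927, 11534 and 11408 CPM. Among the 183 neutrophils, 1 CON cell alone lacked Cxcl2. Its ratio was -0.04 for UV over CON (-0.20 to 0.11) and 0.43 for Rux over CON (0.35 to 0.51). Il1b, the precursor of interleukin-1 beta, was at 8205, 6021 and 6392 CPM, with a ratio of -0.36 for Rux over CON (-0.48 to -0.23) that turned to 0.23 when cells with Pdgfra or Krt5 UMIs were kept and to 0.13 with an S100 minimum of 5%. Over the cells, Il1b spanned 0 to 24.8 UMIs per 1000 in CON, 0 to 13 in UV and 0 to 18.9 in Rux. The interleukin-1 receptor antagonist Il1rn was at 1146, 538 and 976 CPM.

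The CC chemokines Ccl3 and Ccl4, which attract monocytes and T cells, had the largest Rux to CON ratios of the 12 genes on the cytokine list that reached the minimum. Ccl3 was at 495 CPM in CON (38 UMIs in 10 of 29 cells), 1254 in UV (35 UMIs in 8 of 14 cells) and 2118 in Rux (1090 UMIs in 102 of 140 cells). Its ratio was 2.08 for Rux over CON (1.63 to 2.60) and 1.34 for UV over CON (0.64 to 2.04), and 1 UV cell held 51.4% of the UV UMIs. The order of UV and Rux was not stable, since Rux over UV went from 0.74 to -0.31 with an S100 minimum of 0.5% and to -0.49 with one of 5%. At 500 UMIs per cell, 41.4% of Rux neutrophils showed a Ccl3 UMI (interval 33.2 to 50), 13.8% in CON (3.89 to 31.7) and 14.3% in UV (1.78 to 42.8). Pdgfra cells thinned alike showed one in 0.4, 0.1 and 0.1% (median UMIs 6234, 7808 and 9426, against 2498, 2112 and 3468 in neutrophils). Ccl4 was at 352, 358 and 1603 CPM (2.16 for Rux over CON, 1.64 to 2.80), but it was found in fewer cells, 50 of 140 in Rux, one of which held 22.8% of the Rux UMIs. The thinned shares for Ccl4 were 10.3, 14.3 and 18.6%, and their intervals overlapped. In Rux, 31 neutrophils showed both genes at 1000 UMIs per cell.

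Cxcl3, another CXCR2 ligand, was at 1016 CPM in CON, 394 in UV and 1772 in Rux (0.79 for Rux over CON, 0.47 to 1.16), and 1 CON cell held 43.6% of the CON UMIs. Ptgs2, the inducible cyclooxygenase, was at 1094, 394 and 867 CPM, and Ccl6 at 1172, 1183 and 795. Il1a was at 273 CPM in CON, with no UMI in UV and 142 CPM in Rux. Its 21 CON UMIs came from 3 cells, and its ratio for Rux over CON went from -0.97 to 0.70 without the richest cell of each library. Of the 20 cytokine genes, 12 were measured well enough for Rux over CON, and 2 of these, Ccl3 and Ccl4, passed 2-fold, both upward, against 3.42% upward and 4.15% downward of all genes. The list median was -0.13, beside -0.14 for all genes. It turned to 0.67 when cells with Pdgfra or Krt5 UMIs were kept and to 0.59 with an S100 minimum of 5%. For Rux over UV, 4 of 11 passed upward (Cxcl3, Ccl4, Csf1 and Ptgs2) and 0 downward, against 5.23% and 11.3% of all genes. Of these, Ccl4 fell to -0.0018 when cells with Pdgfra or Krt5 UMIs were kept, Ptgs2 was 0.62 with an S100 minimum of 5%, and Csf1 rests on 3 UV UMIs (1.32, -0.03 to 3.83). For UV over CON, 4 of 11 passed downward (Cxcl3, Csf1, Il1rn and Ptgs2) and 1 upward (Ccl3), against 6.25% and 7.45% of all genes. Each of the 4 rests on 15 or fewer UV UMIs. With an S100 minimum of 5%, Il1rn went from -1.05 to 0.22 and Ptgs2 from -1.42 to -0.03, and without the richest cell of each library Cxcl3 was -0.87 and Ccl3 0.73.

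**Figure D4:**
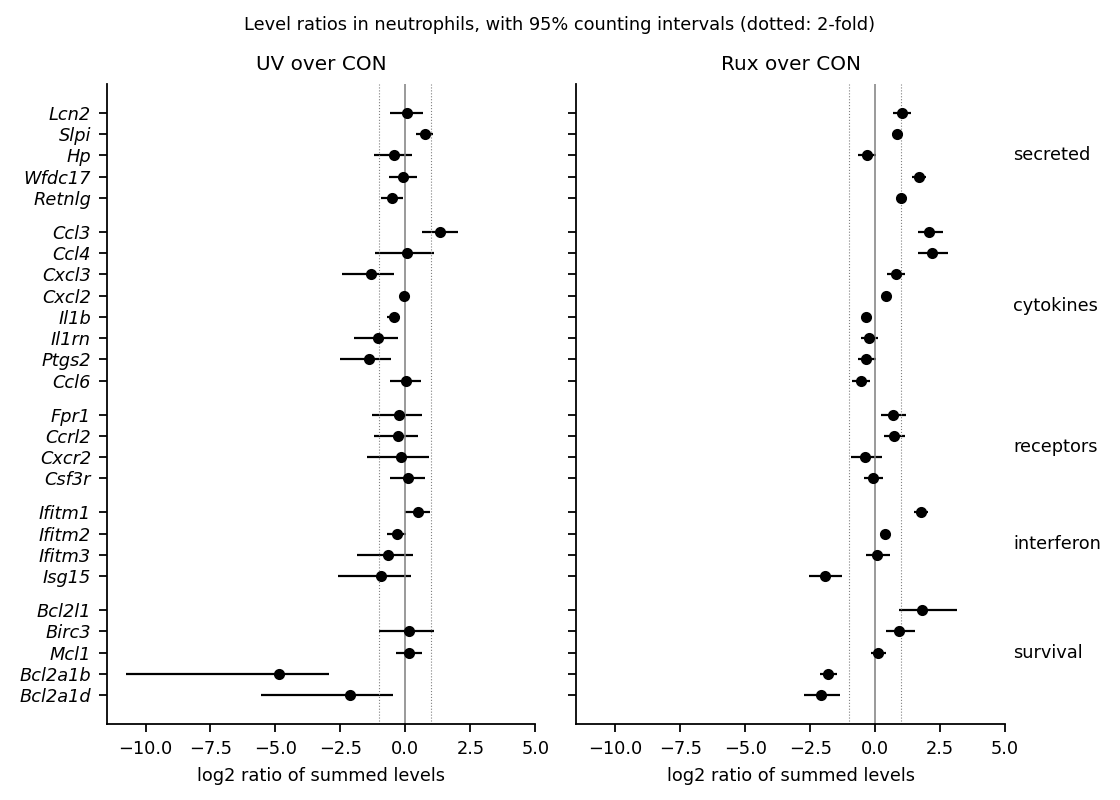
Log2 ratios of summed levels in neutrophils for UV over CON and Rux over CON, with 95% counting intervals as bars and 2-fold dotted, for secreted, cytokine, receptor, interferon-stimulated and survival genes. Ccl3 (2.08), Ccl4 (2.16), Ifitm1 (1.74) and Bcl2l1 (1.82) lie to the right for Rux over CON, Isg15 (-1.93), Bcl2a1b (-1.81) and Bcl2a1d (-2.08) to the left, and the UV intervals are wider; Bcl2l1 has no UV over CON value because it missed the minimum.

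Macrophage cells of the same libraries differed from the neutrophils in Ccl3 and Ccl4. Cxcl2 was abundant in both, higher in neutrophils by a log2 ratio of 0.70 in CON, 0.58 in UV and 1.07 in Rux. Ccl3 in macrophage cells was at 1251 CPM in CON, 440 in UV and 353 in Rux, so that neutrophils held less of it in CON (log2 ratio of neutrophils over macrophage cells -1.32, -1.85 to -0.87) and more in Rux (2.58, 2.42 to 2.75). Ccl4 in macrophage cells was at 6759, 3561 and 2217 CPM, above the neutrophil level in every library. Il1b was higher in neutrophils throughout, by 3.18 in CON, 1.39 in UV and 0.43 in Rux (3.97, 2.41 and 0.67 with another macrophage rule, which asked for at least 2 of the 3 complement C1q genes), while its level in macrophage cells was 906, 2297 and 4758 CPM. Fth1, the ferritin heavy chain, was higher in neutrophils by 2.41, 1.67 and 1.35.

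Among the receptors that guide neutrophils, Fpr1 and Ccrl2 were highest in Rux. Fpr1, a receptor for formyl peptides and annexin A1, was at 560 CPM in CON, 466 in UV and 898 in Rux (0.67 for Rux over CON, 0.23 to 1.17). Fpr2, the related receptor, was at 247, 108 and 299 CPM (0.24, -0.42 to 1.04, and 1.26 for Rux over UV, -0.10 to 3.77, on 3 UV UMIs, and -0.09 with an S100 minimum of 5%). Fpr1 had at most 9 UMIs in the macrophage cells of a library and was thus found mainly in neutrophils among the cells compared. Ccrl2, a chemerin-binding receptor, was at 716, 573 and 1180 CPM (0.71, 0.32 to 1.15). Cxcr4, which holds neutrophils in marrow, had 17, 3 and 71 UMIs and missed the minimum. Of 10 chemoattractant receptors other than Cxcr2, which the rule used, 6 were measured well enough for Rux over CON and none passed 2-fold, against 7.57% of all genes, with a median of 0.03 (-0.19 with Cxcr2). For Rux over UV, 1 of 6 (Fpr2) passed upward, against 5.23% of all genes. Of 10 adhesion genes, 7 were measured for Rux over CON, and none passed, with a median of -0.16.

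The ligands of these receptors were read in all retained cells other than neutrophils. Cxcl1 there was at 892 CPM in CON, 1557 in UV and 2394 in Rux, and Cxcl2 at 335, 683 and 1355 CPM. Cxcl5 was at 6.39, 8.56 and 20.2 CPM, and the CXCR4 ligand Cxcl12 at 79.7, 205 and 442 CPM. All 4 followed the order CON, UV, Rux in this sum over cell types. Within Pdgfra cells Cxcl2 and Cxcl12 did too, but Cxcl1 was at 3246, 3222 and 4072 CPM and Cxcl5 at 23, 17.7 and 36 CPM, so neither was higher in UV than in CON. Csf3, the gene of G-CSF, went the opposite way at 157, 116 and 59.7 CPM. Anxa1, the gene of annexin A1, was at 500, 694 and 712 CPM, and at 833, 944 and 813 CPM in Pdgfra cells. Those levels depend on the cell makeup of each library, and their part in the neutrophil share was not tested.

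The JAK-STAT genes themselves were sparse. Jak1 was at 365 CPM in CON, 358 in UV and 268 in Rux, Jak2 at 443, 824 and 525 CPM (0.91 for UV over CON, but -0.13 when cells with Pdgfra or Krt5 UMIs were kept), and Stat3, which relays G-CSF and interleukin-6 signals, at 326, 323 and 233 CPM. Socs3, a feedback inhibitor induced by STAT3, was at 313 CPM in CON (24 UMIs), 108 in UV (3 UMIs) and 169 in Rux (87 UMIs), a ratio of -0.91 for Rux over CON (-1.55 to -0.17), which was 0.56 with an S100 minimum of 5%. Pim1, a kinase induced by STAT5, was at 1758, 1505 and 1561 CPM. Ifngr1, the ligand-binding chain of the interferon-gamma receptor, was at 287, 502 and 189 CPM. Of the 30 genes other than Csf3r, which the rule used, 11 were measured well enough for Rux over CON, none passed 2-fold, against 7.57% of all genes, and 8 of the 11 were below 0. Their median was -0.46, against -0.14 for all genes. For Rux over UV, 10 were measured, 1 (Ifngr1) passed 2-fold downward, against 11.3% of all genes, and the median was -0.46 against -0.18. Ifngr1 went from -1.46 to -0.40 when cells with Pdgfra or Krt5 UMIs were kept.

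Interferon-stimulated genes are given as 2 groups, the Ifitm genes and the others. The groups were made after the values were seen, so the difference between their sums is a description only. The 4 Ifitm genes, which code for membrane proteins that hinder virus entry, summed to 5795 CPM in CON, 5340 in UV and 10396 in Rux. The 19 others summed to 2240 CPM in CON (interval 1918 to 2601, 172 UMIs), 466 in UV (248 to 797, 13 UMIs) and 618 in Rux (552 to 690, 318 UMIs). A single CON cell gave 25.6% of the CON UMIs, and without the richest cell of each library the levels were 1762, 396 and 504 CPM. At least 1 UMI of the 19 was seen in 79.3, 64.3 and 70.7% of neutrophils.

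Isg15, a ubiquitin-like protein induced by interferon, led the second group in CON. It was at 443 CPM in CON (34 UMIs in 9 of 29 cells), 215 in UV (6 UMIs) and 117 in Rux (60 UMIs in 22 of 140 cells), a ratio of -1.93 for Rux over CON (-2.56 to -1.27). At 500 UMIs per cell, 13.8% of CON, 14.3% of UV and 3.57% of Rux neutrophils showed it, against 4.2, 2.8 and 2% of Pdgfra cells. Each neutrophil share had a counting interval that included the level in Pdgfra cells of the same library. The guanylate-binding protein Gbp2 had 17, 2 and 15 UMIs, Gbp5 had 6, 0 and 2, and the transcription factor Irf1 had 11, 1 and 22. Irf1 was thus at 143, 35.8 and 42.8 CPM. Not every member was lower in Rux than in CON by a similar amount, since Rsad2 was at 78.1, 35.8 and 71.9 CPM. Single-gene levels of this order are sparse, and all but Isg15 missed the minimum. Of the whole list of 23, only 4 were measured well enough for Rux over CON. Of these Ifitm1 passed 2-fold upward and Isg15 downward, against 3.42% and 4.15% of all genes. The median of the 4 was 0.21, beside -0.14 over all 819 genes compared. With no CPM minimum, where 12 genes of the list entered, the median was -1.09.

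Among the Ifitm genes, Ifitm1 (chr7:140967221-140969825, plus strand) was at 1524 CPM in CON, 2114 in UV and 5109 in Rux (1.74 for Rux over CON, 1.48 to 2.02, and 1.26 for Rux over UV, 0.90 to 1.67). Its neighbour Ifitm2 (chr7:140954837-140955987, minus strand) was at 3555, 2831 and 4552 CPM (0.35 for Rux over CON, 0.17 to 0.54). Ifitm3 was at 586, 358 and 620 CPM (0.07, -0.37 to 0.57), and Ifitm6 had 10, 1 and 59 UMIs and missed the minimum. Ifitm1 and Ifitm2, with 2629 and 2342 UMIs, thus supplied most of the Ifitm sum in Rux. At 500 UMIs per cell, 73.6% of Rux neutrophils showed Ifitm1 (65.5 to 80.7), 37.9% in CON (20.7 to 57.7) and 57.1% in UV (28.9 to 82.3), against 2.4, 4.3 and 3.6% of Pdgfra cells. Of the 3 Ifitm genes that reached the minimum, Ifitm1 thus had the largest Rux to CON ratio. It was low in macrophage cells at 12.4, 60.3 and 173 CPM, but was higher in Rux than in CON there too. The Rux over CON ratio of Ifitm1 in macrophage cells was 3.7 (2.7 to 5.1), on 7 CON UMIs.

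The promoters of the list were read for motifs of interferon signalling. Upstream sequence (RefSeq, GRCm38.p6, the 250 bases before the start) was found for 20 of the 23 genes. The core of the interferon-stimulated response element, searched on both strands as GAAA, any 2 bases and GAAA again, was present in 9 of the 20, against 3.46% of the 27025 genes with a promoter in the table (2.98% of 32851 promoters). The gamma-activated site bound by STAT dimers, searched on both strands as TTCNNNGAA, was present in 5 of the 20, against 8.13% of all genes (7.02% of promoters). Ifitm1 and Ifitm3 held neither, Ifitm2 held the core and Ifitm6 held the gamma-activated site. Rsad2, at 78.1 CPM in CON and 71.9 in Rux, also held the core. A link between the motifs and the direction of the ratios was not tested. The stretches below show matches of 3 genes lower in Rux than in CON and of Ifitm2, with the matched letters in capitals and written along the gene's strand.
Isg15, response element core, chr4:156200869-156200902, minus strand: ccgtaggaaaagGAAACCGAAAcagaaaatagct
Gbp2, response element core on the opposite strand, chr3:142620592-142620625, plus strand: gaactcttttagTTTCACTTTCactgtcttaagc
Irf1, gamma-activated site, chr11:53769912-53769944, plus strand: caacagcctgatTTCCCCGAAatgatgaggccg
Ifitm2, response element core, chr7:140955986-140956019, minus strand: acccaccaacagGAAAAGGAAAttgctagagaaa

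Both groups were also read outside the neutrophils. The 19 genes summed to 8763 CPM in the macrophage cells of CON, 4709 in those of UV and 1941 in those of Rux, and to 1516, 1285 and 780 CPM in Pdgfra cells. In both, as in neutrophils, CON was highest, but UV lay between CON and Rux. The 4 Ifitm genes were at 1524, 2372 and 2402 CPM in macrophage cells and at 2352, 2084 and 1939 CPM in Pdgfra cells.

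**Figure D5:**
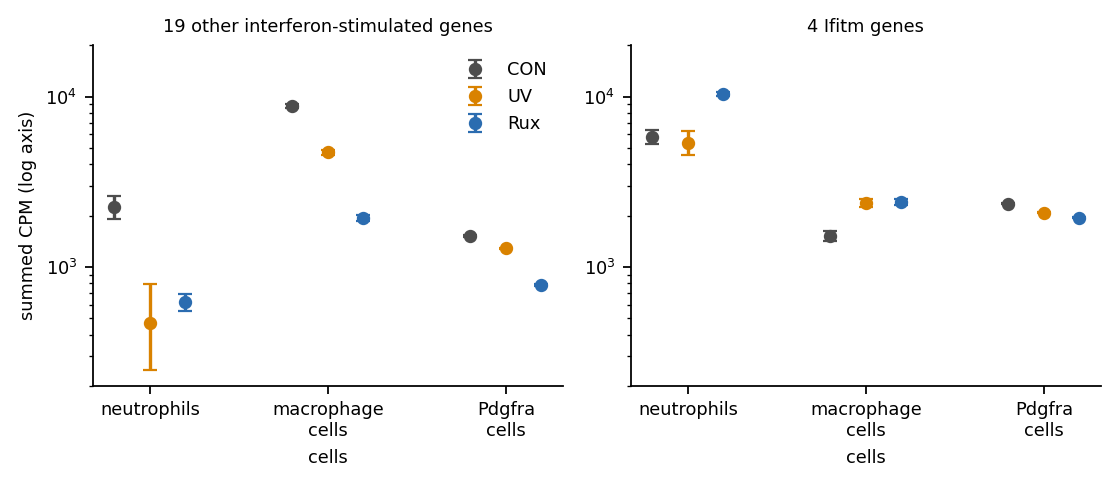
Summed CPM (log axis) of 19 interferon-stimulated genes (left) and of the 4 Ifitm genes (right) in neutrophils, macrophage cells and Pdgfra cells of the 3 libraries, with 95% exact Poisson intervals. For the 19 genes CON is highest in each cell class (2240 CPM in neutrophils against 466 in UV and 618 in Rux), and for the Ifitm genes Rux neutrophils stand highest at 10396 CPM.

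Genes that set neutrophil lifespan differed gene by gene. Mcl1, on which neutrophil survival depends, was at 1563 CPM in CON, 1720 in UV and 1697 in Rux, with no difference beyond counting error (0.11 for Rux over CON, -0.16 to 0.41). Bcl2l1, which codes for the anti-apoptotic protein BCL-XL, was at 104, 322 and 389 CPM (8, 9 and 200 UMIs), a ratio of 1.82 for Rux over CON (0.89 to 3.13). Birc3, an inhibitor of apoptosis induced by NF-kB, was at 404, 430 and 772 CPM (0.91, 0.41 to 1.51), and the caspase-8 regulator Cflar at 234, 108 and 443 CPM (0.88, 0.23 to 1.70). The Bcl2a1 genes, near-identical anti-apoptotic copies that reads may not tell apart, went the other way. Bcl2a1b was at 1550, 35.8 and 443 CPM, Bcl2a1a at 573, 35.8 and 44.7, and Bcl2a1d at 391, 71.7 and 93.3. Summed over the 3 copies, the level was 2514 CPM in CON (2171 to 2894), 143 in UV (39.1 to 367, 4 UMIs) and 581 in Rux (517 to 651), with a UMI in 20 of 29, 2 of 14 and 94 of 140 cells. Whether reads that match more than 1 copy were counted was not examined. One CON cell gave 27.5% of the CON sum. Of 15 survival genes, 9 were measured well enough for Rux over CON; 1 passed 2-fold upward and 3, all Bcl2a1 copies, downward, against 3.42% and 4.15% of all genes.

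Among the iron and oxidative stress genes, Ftl1 was higher in the 14 UV cells, while Fth1 was at a similar level in the 3 libraries. Ftl1, the ferritin light chain, was at 4298 CPM in CON, 9497 in UV (265 UMIs in all 14 cells) and 3864 in Rux (1.14 for UV over CON, 0.91 to 1.38, and 0.89 without the richest cell of each library). The heavy chain Fth1 was at 42300, 46481 and 44202 CPM. Hmox1, which degrades haem, was at 182, 466 and 79.7 CPM, but 1 cell held 92.9% of its CON UMIs and 1 cell 69.2% of its UV UMIs. Slc7a11, the cystine importer, was at 3308, 4874 and 4064 CPM (0.56 for UV over CON, 0.25 to 0.87), and thioredoxin (Txn1) at 1420, 1290 and 807 CPM. Of 14 iron and oxidative stress genes, 9 were measured for UV over CON, of which 2, Ftl1 and Hmox1, passed 2-fold upward and 0 downward, against 7.45% and 6.25% of all genes. Of the 8 measured for Rux over UV, Ftl1 (-1.3, -1.48 to -1.11) and Hmox1 (-2.6, -3.48 to -1.52) passed downward, against 11.3% of all genes.

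Immediate early and feedback genes also differed gene by gene. Zfp36, which destabilizes cytokine transcripts, was at 573 CPM in CON, 1183 in UV and 544 in Rux (1.05 for UV over CON, 0.35 to 1.73, and 0.17 when cells with Pdgfra or Krt5 UMIs were kept). Klf2, a transcription factor that restrains inflammatory genes, was at 677, 1218 and 688 CPM (0.85, 0.18 to 1.50). Nr4a1, an orphan nuclear receptor, was higher in both irradiated libraries at 182, 502 and 428 CPM (1.18 for Rux over CON, 0.45 to 2.12, and 0.86 with Pdgfra and Krt5 cells kept, where UV over CON went from 1.46 to 0.10), and the stress factor Atf3 was lower in Rux at 313, 287 and 121 CPM (-1.39, -2.08 to -0.63). Of the 17 genes of this list measured for UV over CON, 3 (Nr4a1, Ier2 and Zfp36) passed 2-fold upward and 0 downward, against 7.45% and 6.25% of all genes. Of the 18 measured for Rux over UV, Atf3 (-1.33), Zfp36 (-1.14), Fos (-1.08) and Ier2 (-1.05) passed downward, against 11.3% of all genes. Of the 17 measured for Rux over CON, Nr4a1 passed upward and Atf3 downward, against 3.42% and 4.15% of all genes, and the list median was 0.01.

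The genes with the highest Rux to CON ratios included transcripts of other lineages. Ccl2 was at 52.1 CPM in CON, 215 in UV and 665 in Rux, Apod at 65.1, 35.8 and 762 CPM, Spp1 (osteopontin) at 260, 71.7 and 2039 CPM, and the fibroblast proteoglycan gene Dcn at 287, 645 and 1040 CPM. In Rux 1 cell held 73% of the Apod UMIs, 38% of those of Ccl2, 29.8% of those of Spp1 and 29.4% of those of Dcn. With doublets removed, the Rux over CON ratio of Dcn went from 1.83 to -0.11 and that of Apod from 3.41 to 0.21. That of Ccl2 went from 3.51 to -0.73 when cells with Pdgfra or Krt5 UMIs were kept. Ccl4, Ccl3, Bcl2l1, Vim, Ifitm1 and Wfdc17 completed the 10 highest. The 10 lowest were Bcl2a1a, Bcl2a1d, Isg15, Rgs2, Bcl2a1b, Atp6v1f, Atf3, Prkcb, Isy1 and Hnrnpa3. For UV over CON the highest was Stim2, a calcium sensor, on 10, 16 and 40 UMIs, and for Rux over UV the lowest was Slc23a2, a vitamin C transporter, on 2, 15 and 15 UMIs.

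Of the 20 genes with most UMIs, several were not neutrophil genes as such. Gm42418, which overlaps ribosomal RNA repeats, was at 21606 CPM in CON, 34547 in UV and 26143 in Rux. Tmsb4x, an actin-binding peptide, was at 14729, 10787 and 7756 CPM, lower in Rux than in CON by a ratio of -0.93 (-1.02 to -0.83). Malat1, a nuclear RNA, was at 15185, 18241 and 16508 CPM. With S100a9, Fth1, S100a8, Cxcl2 and Srgn, these were the genes with most UMIs in the neutrophils.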

How the data were processed

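The authors deposited 1 matrix of raw UMI counts per library (32285 genes), made with Cell Ranger on mm10. The version was 6.1.2 per the labels and 7.0.0 per the file headers. Raw counts keep differences in depth, so levels were scaled to CPM of each library's neutrophil total. Counts were summed over neutrophils and divided by that total in Python 3.11.15 with numpy 2.4.6 and scipy 1.17.1. Shares have exact Clopper-Pearson intervals, summed UMIs exact Poisson intervals and ratios exact conditional binomial intervals, all at 95% and for counting error only. UMIs of 1 cell are not independent, so the intervals of sums and ratios are too narrow.

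The neutrophil rule and the gene lists were chosen with earlier results of these data known. Genes were named if in the rule, among the 20 with most UMIs, among the 10 highest or lowest ratios of a comparison, or on a list a passage needed. Macrophage cells and Pdgfra cells were selected by marker genes. Doublets were scored with Scrublet in scanpy 1.11.5, and the top 0.8% per 1000 cells were removed in an alternative only. Code for ratios was tested on simulated data. Positions are from GENCODE M21 and promoters from RefSeq. Alternatives changed the cell filter, the rule, the scaling and the gene minimum. Values of some genes on the lists are not reported here.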

Additional observations from a re-analysis of the deposited data

Results flagged for a closer look

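Ddx3y, a gene of the Y chromosome, was read over all retained cells although the mice are labelled female. It was at 110 CPM in CON, 116 CPM in UV and 122 CPM in Rux, with Xist near 0 in all 3. It drew attention as a signal outside the comparisons of the report.

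Some genes moved past 2-fold in opposite directions in neutrophils and in macrophage cells of the same libraries. With 1 library per condition the difference was not tested. For Rux over CON, the ratio in neutrophils minus that in macrophage cells was 3.90 for Ccl3 (2.08 and -1.82), 3.77 for Ccl4 (2.16 and -1.61) and -3.38 for Bcl2a1d (-2.08 and 1.31). For UV over CON it was 2.85 for Ccl3 (1.34 and -1.51), -2.64 for Cxcl3 (-1.31 and 1.33), -3.41 for Ptgs2 (-1.42 and 2.00) and -3.28 for Bcl2a1d (-2.15 and 1.13). Several of the UV over CON values in neutrophils did not stay past 2-fold, since Ptgs2 was -0.03 with an S100 minimum of 5%, and without the richest cell of each library Cxcl3 was -0.87 and Ccl3 0.73. The UV values rest on 35, 11, 11 and 2 UMIs in neutrophils, and reads may not tell Bcl2a1d apart from its near-identical copies. Summed over the 3 Bcl2a1 copies, macrophage cells were at 581 CPM in CON, 596 in UV and 815 in Rux, while neutrophils were at 2514, 143 and 581 CPM. For Rux over CON the sums thus moved in opposite directions, but under 2-fold in macrophage cells.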

How the results depend on the processing

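The order of the shares, Rux over CON over UV, held under all 9 alternatives, with Rux 4.47 to 7.37-fold CON and 10.5 to 22.2-fold UV. With an S100 minimum of 5% the shares were 0.133%, 0.044% and 0.978% in CON, UV and Rux. With Pdgfra and Krt5 cells kept, they were 0.39% in CON and 2.00% in Rux, and thinned to 500 UMIs first they were 0.0616% in UV and 0.89% in Rux.

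Counts of genes past 2-fold moved with the gene minimum and the rule. At a mean of 500 CPM, where fewer genes enter, they were 41 of 324 for UV over CON (12.7%), 40 of 308 for Rux over UV (13%) and 20 of 320 for Rux over CON (6.25%), against 13.7%, 16.5% and 7.57% at 200 CPM. With no CPM minimum they were 1049 of 3015 for Rux over UV (34.8%) and 780 of 3215 for Rux over CON (24.3%). With the S100 minimum of 5% they were 274 of 795 for Rux over UV and 129 of 799 for Rux over CON, and with Pdgfra and Krt5 cells kept 258 of 812 and 118 of 818. The causes of these last changes were not tested. With those cells kept, list medians for Rux over CON became 0.30 for chemoattractant receptors (Cxcr2 included), 0.60 for pathogen receptors, 0.67 for cytokines, 0.65 for survival and 0.23 for iron genes, and for Rux over UV 0.40 for identity and 0.68 for pathogen receptors. The cytokine median for Rux over CON was 0.59 at the S100 minimum of 5%, and the interferon median was -1.09 with no CPM minimum, where more of the list enters.

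With the other macrophage rule, 13 of the 30 ratios of neutrophils over macrophage cells that were followed left their counting interval. Some signs also changed, for example those of Socs3 in CON (from 0.07 to -0.09) and Cxcl3 in UV (from -0.51 to 0.07).

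Among single genes 31 changes of sign are listed here. The list is not complete, since Fpr2 for Rux over UV, whose counting interval included 0, also changed sign at the S100 minimum of 5%. With Pdgfra and Krt5 cells kept, Rux over CON became -0.73 for Ccl2 and 0.79 and 0.23 for Il1a and Il1b. Rux over UV became -0.0018 for Ccl4, 0.20 for Ccl6, 0.16 for G0s2, 0.13 for Gm42418, 0.051 for Klf2, 0.031 for Slc7a11 and 0.26 for Tmsb4x, and UV over CON became -0.13 for Jak2 and -0.26 for S100a8. At the S100 minimum of 5%, Rux over UV became -0.49 for Ccl3, 0.25 for Ccl6, -0.078 for Clec4e, -0.34 for Dcn, -0.020 for Lcn2 and -0.070 for S100a8. Rux over CON became 0.12 for G0s2, 3.13 for Il1a, 0.13 for Il1b and 0.56 for Socs3, and UV over CON became 0.041 for Cd14 and 0.22 for Il1rn. At 0.5%, Ccl3 became -0.31 for Rux over UV. With doublets removed, Ccl2 became -0.29 and Dcn -1.29 for Rux over UV, and Dcn -0.11 for Rux over CON. Dcn for Rux over UV also became -0.38 without neutrophils of over 2 times the median UMIs and -0.081 with equal weight per cell, and Il1a for Rux over CON became 0.70 without its richest cells. These last alternatives on high-UMI and richest cells were chosen after seeing the data, as was leaving Cxcr2 and Csf3r out of their lists, which turned the chemoattractant receptor median from -0.19 to 0.03 for Rux over CON and from -0.15 to 0.37 for Rux over UV. The UV library, with 14 neutrophils, limits every comparison that uses it.

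No paired analysis was possible because each condition had 1 library.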

Other observations

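Some gene groups not described above are given by their counts. Of 18 glycolysis and hypoxia genes, 6 were measured well enough for Rux over CON and none passed 2-fold, against 7.57% of all genes, while 1 of 7 (Slc2a3, a glucose transporter) passed downward for Rux over UV, against 11.3% of all genes. Gapdh, a glycolytic enzyme, was at 599 CPM in CON, 860 in UV and 824 in Rux. Of 7 genes of the NADPH oxidase and of extracellular traps, 5 were measured for Rux over CON and none passed 2-fold, beside the same 7.57%, while 1 of 5 (Ncf1) passed upward for Rux over UV, on 4 UV UMIs and against 5.23% of all genes. Ncf1, a cytosolic subunit of the oxidase, was at 208, 143 and 354 CPM, while Cyba, a membrane subunit, was at 729, 717 and 455 CPM. Of 14 receptors for microbes and immunoglobulins, 8 were measured in each of the 3 comparisons and none passed 2-fold, against 13.7% of all genes for UV over CON, 16.5% for Rux over UV and 7.57% for Rux over CON. Cd14, the co-receptor for lipopolysaccharide, was at 3477, 2580 and 4202 CPM, and Clec4e, a lectin receptor for damaged cells and fungi, at 1615, 1899 and 2594 CPM.

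Without the 6 Rux neutrophils that the doublet caller marked, the 4 Ifitm genes summed to 11074 CPM in Rux, beside 10396 CPM with them.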
